A study of Homo sapiens and Mus musculus with 5 samples.

Results

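The 1453 reporter alleles described here are those measured in both Neuro-2a, a mouse neuroblastoma line, and SH-SY5Y, a human neuroblastoma line. They were chosen by joining the tables of both lines on fragment and allele and keeping every allele with plasmid DNA reads above 0 in each. They are 89.4% of the 1625 alleles found in any table of the series, 1471 of which are in the Neuro-2a table and 1562 in the SH-SY5Y table. The members are 701 sequences of allele 1 and 752 of allele 2, from 931 fragments around 345 single-nucleotide polymorphisms (SNPs). Of the fragments, 522 had both of their alleles among the members and 409 had 1. The input reads of all 1453 alleles were the same in both tables, so any difference between the lines lies in the RNA. An allele kept in a line's table has at most 1 RNA library at 0. Alleles with no RNA reads in 1 of the lines could therefore not be members.

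The series tested human common variants linked to schizophrenia for enhancer activity in 4 cell lines. One pool of plasmids was transfected into each line, RNA was made into 3 libraries for Neuro-2a and 3 for SH-SY5Y, and the same pool gave 3 input libraries. No drug, differentiation or genetic change is named for either line, and neither carries a label beyond its name and species. The protocols speak of triplicate experiments without naming days or cultures, so the p-values here measure the spread between these libraries, which may in part be technical.

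In a self-transcribing reporter assay, a candidate fragment is cloned into the transcribed part of a reporter gene, so a fragment that raises transcription raises its own abundance in the RNA. Reads of a fragment in RNA over its reads in the plasmid input therefore measure regulatory activity relative to the pool. Which fragments are active depends on the transcription factors a cell holds. Because Neuro-2a cells supply mouse proteins and SH-SY5Y cells human ones, the same human DNA was read here by the factors of either species in related tumour types. Each species gave a single line to this comparison, so species cannot be told apart from other differences between the lines. The files hold reporter reads only, so no marker gene of either line could be checked.

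Each fragment spans a SNP, with 50, 100 or 150 bases placed in front and the rest of 200 bases behind, written below as 50/150, 100/100 and 150/50. These placements share the 50 bases on each side of the SNP. The sources used here do not say whether "front" means lower coordinates or upstream of a gene, which base each allele number carries, or which genome build was used. Gene names below were taken from the RefSeq annotation of GRCh38.p14 and hold only if the positions are on that build. On that reading, 325 SNPs have a position, 219 of them inside a protein-coding gene, and 20 SNPs are given by rs number alone.

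At gene starts lie 3 of the SNPs described below, and their promoters are printed because they are the sequence context of those results. Each line gives 280 bases of the RefSeq promoter window on GRCh38.p14, minus strand, 5′ to 3′, with the bases within 50 of the SNP in capitals. The capitals are therefore the part that every placement of that SNP contains, as far as the window reaches. The SNP lies 25 bases after the start of ZNF823, 73 bases before that of IZUMO1 and 204 bases before that of FTCDNL1.
ZNF823, chr19:11738917-11739196: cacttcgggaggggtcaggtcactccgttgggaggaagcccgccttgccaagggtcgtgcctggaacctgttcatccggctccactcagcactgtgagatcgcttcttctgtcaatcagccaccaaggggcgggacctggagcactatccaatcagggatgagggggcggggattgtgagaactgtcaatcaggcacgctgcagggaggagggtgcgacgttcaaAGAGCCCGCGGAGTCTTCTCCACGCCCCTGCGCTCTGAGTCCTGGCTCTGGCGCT
IZUMO1, chr19:48746880-48747159: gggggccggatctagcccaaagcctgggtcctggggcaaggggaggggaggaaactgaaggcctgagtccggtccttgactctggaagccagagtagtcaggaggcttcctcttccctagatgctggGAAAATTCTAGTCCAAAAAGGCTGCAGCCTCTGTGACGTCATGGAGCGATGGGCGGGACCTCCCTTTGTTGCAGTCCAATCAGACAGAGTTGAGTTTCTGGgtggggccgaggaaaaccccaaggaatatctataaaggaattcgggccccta
FTCDNL1, chr2:199851163-199851442: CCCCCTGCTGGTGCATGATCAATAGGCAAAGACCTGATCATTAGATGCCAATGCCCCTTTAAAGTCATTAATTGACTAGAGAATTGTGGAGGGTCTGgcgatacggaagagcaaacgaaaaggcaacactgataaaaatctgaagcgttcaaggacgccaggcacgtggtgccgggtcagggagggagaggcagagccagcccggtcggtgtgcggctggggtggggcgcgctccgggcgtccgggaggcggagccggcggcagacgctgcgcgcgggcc
ZNF823 encodes a zinc finger protein, and IZUMO1 a sperm surface protein needed for fusion with the egg.

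These windows were searched on both strands for 8 short motifs, spelled out here. The cAMP response element TGACGTCA, present in 1.85% of all 35116 promoter windows, occurs in the IZUMO1 window at -90 from the gene start, inside the stretch that all placements share. The GC box GGGCGG is in 45.0% of all windows, at -123 and -86 in ZNF823 and at -73 in IZUMO1. The IZUMO1 SNP, also at -73, is the first base of that box. An allele with another base there would lack this match, and which allele number that is was not stated. CCAAT is in 34.6% of windows and in all 3 of these, at -102, -48 and -203 in the order printed. FTCDNL1 also holds the E-box CACGTG at -88 (7.26% of windows), and IZUMO1 holds TATAAA at 8 bases after its annotated start (11.5%). None of the 3 windows holds CCGGAAGT (4.14% of windows), AAGATGGC (2.89%) or GCGCATGC (3.05%). A match describes the letters of the reference window and not a bound site. The 300-base windows of ZNF823, IZUMO1 and FTCDNL1 are 62.0%, 57.3% and 62.3% G and C, against a median of 58.7% over all windows.

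The Neuro-2a libraries held 5863223 to 7055855 reads of the members, and the SH-SY5Y libraries 7086540 to 10043864. At 0 were 237 values in Neuro-2a and 91 in SH-SY5Y, and 286 alleles had a 0 in at least 1 of the 6 RNA libraries, 195 of them in Neuro-2a alone and 49 in SH-SY5Y alone. Among the members a 0 was rarely the end of a range of low values. In each library 0 to 5 values lay between 1 and 9 reads, and the other libraries of the alleles at 0 had median counts of 867 to 2457. Alleles with more than 1 RNA library of a line at 0 were left out beforehand, so alleles low throughout may be missing from these counts. Replicate 1 of each line stood apart. The middle 50% of alleles spanned 0.97 and 1.00 log2 units of RNA over input in replicate 1 of Neuro-2a and SH-SY5Y, against 1.49 to 1.76 in the other 4 libraries. Across alleles, the correlation (Pearson's r, values at 0 left out) of RNA over input between the lines was 0.41 for replicate 1 of both, 0.69 to 0.72 among replicates 2 and 3, and 0.28 to 0.33 between replicate 1 and the others. Within a line, r was 0.33 to 0.66 in Neuro-2a and 0.43 to 0.85 in SH-SY5Y, so a replicate 2 or 3 of one line resembled that of the other line more than its own replicate 1. Alleles share libraries and are not independent replicates, and these correlations are descriptions.

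The main comparison asked which alleles gave more or less RNA in Neuro-2a than in SH-SY5Y. In the planned fit over all 1453 alleles (edgeR's quasi-likelihood test, replicate number as a block), none passed an adjusted p of 0.05, which is 0.00% of the alleles, and the lowest adjusted p was 0.384. Without the block none passed either, with a lowest adjusted p of 0.757. At an unadjusted p under 0.05 stood 60 alleles that were higher in Neuro-2a (4.13%) and 55 that were lower (3.79%). The 3 libraries of each line did not overlap for 102 alleles that were higher in Neuro-2a (7.02%) and 82 that were lower (5.64%).

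Other tools called more. DESeq2 called 181 of 1453 alleles (12.5%), 94 higher and 87 lower in Neuro-2a, and limma-voom called 35 higher (2.41%) and 15 lower (1.03%), of which 44 were also among the DESeq2 calls. Among the 50 limma-voom calls, 26 had libraries that did not overlap between the lines and 4 held a value at 0. The planned edgeR fit over only the 1167 alleles with no 0 called 2 (0.171%), which are both alleles of the same fragment, the 50/150 placement at ZNF823. That call was lost without the replicate block (lowest adjusted p 0.471, edgeR) and without replicate 1 (0.110), while 12 alleles passed without replicate 2 and 5 without replicate 3.

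The ZNF823 fragment had the smallest p of the whole comparison in both alleles. Its SNP lies at position 11738921 of chromosome 19, inside the annotated gene. In the 50/150 placement, allele 2 gave 4821, 3979 and 4778 CPM (reads scaled to library size) in replicates 1 to 3 of Neuro-2a and 1518, 1139 and 1595 in SH-SY5Y. The groups did not overlap, and each Neuro-2a library stood about as far above its SH-SY5Y counterpart, by 1.67, 1.80 and 1.58 log2 units. The fitted difference, here and below Neuro-2a minus SH-SY5Y on the log2 scale with its SE, was 1.68 ± 0.13 (n = 3 libraries per line), a 3.22-fold higher RNA level in Neuro-2a. edgeR's adjusted p was 0.384 over all alleles and 0.0234 over those with no 0, and limma-voom gave 0.000162.

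Allele 1 of the same fragment stood at 2568, 7183 and 7454 CPM in Neuro-2a and 744, 1982 and 2910.2 in SH-SY5Y. Replicate 1 was low in both lines, so the groups overlapped, yet the difference within each replicate number was 1.79, 1.86 and 1.36. The fitted difference was 1.67 ± 0.16, with the same adjusted p-values from edgeR over alleles with no 0 and from limma-voom as allele 2. Activity is given as the log2 of RNA over plasmid input, with the median of each library set at 0. Allele 2 had an activity of 1.43 ± 0.19 in Neuro-2a and -0.24 ± 0.26 in SH-SY5Y (mean ± SD, n = 3). The same allele measured -0.82 ± 0.11 in HEK-293T, a human embryonic kidney line (n = 3), and -0.10 ± 0.73 in PC-12, a pheochromocytoma line (n = 2), so Neuro-2a held its highest activity of the 4 lines. Those further lines were not tested against Neuro-2a here.

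The other placements at the ZNF823 SNP differed less between the lines. With 100/100, the differences were 0.41 ± 0.13 for allele 1 and 0.61 ± 0.17 for allele 2, and neither passed in edgeR or limma-voom, while DESeq2 called both (adjusted p 6.9e-07 and 0.0022). In the 150/50 placement they were 0.04 ± 0.13 and -0.26 ± 0.27. For allele 2 in that placement Neuro-2a gave 988, 751 and 1281 CPM and SH-SY5Y 1301, 1209 and 1045, which overlap. Only 1 of the unequal placements can hold the GC box at -86 and the CCAAT at -102 of the promoter printed above, and which one depends on the unstated meaning of "front".

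To test such placement differences, the ratio of the 150/50 to the 50/150 placement of an allele was compared between the lines for the 335 alleles that had both. This test was chosen after the values were seen. None of the 335 passed (0.00%, edgeR), 10 had an unadjusted p under 0.05, and the lowest adjusted p was 0.942. Over the 228 alleles with no 0 in either placement again none passed (0.00%), 17 had an unadjusted p under 0.05 and the lowest adjusted p was 0.0605. In the fit of all 335, both ZNF823 alleles were among the 3 with the smallest p: the log2 ratio differed by -1.63 ± 0.30 for allele 1 and -1.95 ± 0.39 for allele 2. The other was allele 2 at PPP2R3A, described below, at -2.61 ± 0.45. In fits of these 228 alleles without replicate 2 or without replicate 3, 7 alleles passed in each, and without replicate 1 none did.

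At IZUMO1, position 48746982 of chromosome 19, all 6 alleles were higher in Neuro-2a, and 3 of them held a value at 0. Allele 2 in the 150/50 placement gave 795, 2771 and 3272 CPM in Neuro-2a and 352, 648 and 859 in SH-SY5Y. The highest SH-SY5Y value lay just above the lowest of Neuro-2a, and both were far from the other Neuro-2a libraries. Its difference was 1.74 ± 0.26, 3.33-fold, with an adjusted p of 0.445 (edgeR) and 0.00173 (limma-voom). Allele 2 in the 50/150 placement gave 3030.1, 3510.2 and 1913 CPM against 959, 679.7 and 1291, with no overlap and a difference of 1.54 ± 0.42. Allele 1 of that placement held a lone 0. It stood at 2764, 2682 and 0 CPM in Neuro-2a and 675, 288 and 307 in SH-SY5Y, and edgeR gave 0.98 ± 3.51.

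Near FTCDNL1, position 199851396 of chromosome 2, all 5 alleles were higher in Neuro-2a. In the 50/150 placement, allele 1 gave 1085, 1750.5 and 2530.1 CPM in Neuro-2a and 604, 714 and 883 in SH-SY5Y, a difference of 1.22 ± 0.21. Allele 2 gave 1199, 849.7 and 954 CPM against 617, 431 and 508, a difference of 0.95 ± 0.22. Neither pair of groups overlapped. Its activity was below the middle of the pool in both lines, at -0.28 ± 0.27 and -1.21 ± 0.26 (mean ± SD, n = 3).

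A further SNP, at position 49665670 of chromosome 19, lies inside the annotated genes IRF3 and BCL2L12 (a relative of the apoptosis regulator BCL2). It is at -263 from the start that a BCL2L12 promoter window is built on, just outside that window. This SNP did not follow the direction of the others. Its 5 alleles differed by -0.60 to -0.11, and none had an unadjusted p under 0.05 (edgeR). Over these 4 SNPs, 16 of 22 alleles were higher in Neuro-2a with a median difference of 0.55, and 8 had an unadjusted p under 0.05, all of them higher. For the 1342 alleles of the other positioned SNPs the median was -0.14, with 48 higher and 51 lower at that p. Promoter SNPs were grouped after their values were seen, so these counts describe them and test nothing.

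Away from gene starts, the SNP at position 102434022 of chromosome 5 lies in SLCO6A1, a gene of the organic anion transporter family. In the 50/150 placement, allele 1 gave 1473, 3441 and 3107 CPM in Neuro-2a and 351, 1406 and 964 in SH-SY5Y. The groups did not overlap, and the difference was 1.68 ± 0.21, 3.21-fold (edgeR adjusted p 0.445). Allele 2 of that fragment differed by 1.23 ± 0.35. A second SNP in the same gene, at 102388171, had all 6 alleles lower in Neuro-2a (-1.46 to -0.13). Its 50/150 allele 2 gave 732, 772 and 825 CPM against 992, 2261 and 3023.

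Allele 2 of rs942820 was higher in Neuro-2a in all placements. With 50/150 it gave 4216, 3009 and 3275 CPM against 1758, 955 and 1579.7, a difference of 1.32 ± 0.18. With 150/50 it gave 1485, 2552 and 1734 CPM against 723, 809 and 672, a difference of 1.35 ± 0.20. Neither pair of groups overlapped, and each had an adjusted p of 0.445 (edgeR). In ANKRD63, position 40279991 of chromosome 15, allele 2 with 100/100 gave 2483, 6567 and 7119 CPM against 1143, 3352 and 4089. Its difference of 0.96 ± 0.13 was of much the same size in every replicate number (1.12, 0.97 and 0.80), although replicate 1 was low in both lines and the groups overlapped. These 4 fragments and ZNF823 are the source of the 6 alleles with the smallest p that were higher in Neuro-2a in every replicate number.

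NT5C2, which encodes a cytosolic nucleotidase, was named after its values were seen. With 100/100, allele 1 at position 103146454 of chromosome 10 gave 1576, 2581 and 2193 CPM in Neuro-2a and 344, 307 and 708 in SH-SY5Y, a difference of 2.30 ± 0.36. The groups did not overlap, and edgeR's adjusted p was 0.445. The other 3 alleles of this SNP differed by 0.78 ± 0.26, 0.19 ± 0.18 and 0.36 ± 0.49.

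Of the 6 alleles that were lower in Neuro-2a with the smallest p, none passed in the planned edgeR fit. DESeq2 called all 6, and limma-voom called all but the MPPED2 allele. The first lies 8540 bases from TBL1XR1, a component of the NCoR and SMRT corepressor complexes, at position 177010804 of chromosome 3. With 100/100, allele 2 gave 844, 1682 and 951 CPM in Neuro-2a and 1868, 3853 and 3229 in SH-SY5Y, without overlap, and its difference was -1.37 ± 0.19. Allele 1 of the fragment gave 431, 159 and 78.2 CPM against 1289, 1381 and 1279, a difference of -2.92 ± 0.62. The SH-SY5Y libraries of allele 1 were nearly level, and those of Neuro-2a were all lower and more widely spread. In the other placements the differences were -0.63 ± 0.37 (150/50, allele 1) and 0.16 ± 1.05 (50/150, allele 2).

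The next alleles of the 6 differed less. In TMTC1, an O-mannosyltransferase gene, 100/100 allele 1 gave 677, 1199 and 1598 CPM in Neuro-2a and 1198, 2440.2 and 2876 in SH-SY5Y, a difference of -0.90 ± 0.14. At a distance of 8643 bases from ACE, the angiotensin-converting enzyme gene, 100/100 allele 1 differed by -1.17 ± 0.20 and allele 2 by -1.02 ± 0.27. The 50/150 allele 1 in PCNX3 differed by -1.11 ± 0.21 and that in MPPED2, a metallophosphoesterase gene, by -0.90 ± 0.18. In these alleles, other than allele 2 near ACE, the groups overlapped, while the lines differed in the same direction in every replicate number.

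The SNP in PPP2R3A, a gene for a regulatory subunit of protein phosphatase 2A, had opposite directions by placement. It lies at position 136050568 of chromosome 3. In the 150/50 placement, allele 2 gave 1337, 2155 and 2754 CPM in Neuro-2a and 3133, 3731 and 5621 in SH-SY5Y, a difference of -1.02 ± 0.15, and allele 1 differed by -0.76 ± 0.22. In the 50/150 placement, allele 2 gave 1995, 688 and 607 CPM against 426, 222 and 319.6, a difference of 1.60 ± 0.37, and allele 1 differed by 1.26 ± 0.50. The lines did not overlap in any of these 4 comparisons. With 100/100, allele 2 was one of the most abundant reporters, at 4349, 13129 and 12522 CPM against 5849.5, 14606 and 18450.2, and its difference was -0.38 ± 0.12.

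Activity over input shows the same order within each line. For allele 2 it was 1.88 ± 0.53 with 150/50 and -0.80 ± 0.95 with 50/150 in Neuro-2a, and 2.90 ± 0.43 and -2.38 ± 0.47 in SH-SY5Y (mean ± SD, n = 3). The gap between the placements was wider in SH-SY5Y. In HEK-293T the values were 2.57 ± 0.45 and -2.0 ± 0.79 (n = 3), and in PC-12 2.60 ± 0.26 and -1.30 ± 0.18 (n = 2). Every line had the 150/50 placement above the 50/150 placement.

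Among the 159 SNPs with 5 or 6 alleles, 8 had every allele higher in Neuro-2a and 20 had every allele lower, against 43.4% of all alleles being higher. Beside IZUMO1 and FTCDNL1, all 5 alleles were higher at a SNP 9271 bases from RCBTB1 on chromosome 13 (0.61 to 1.58) and at a SNP 5512 bases from PPDPF on chromosome 20 (0.53 to 1.40). Near PPDPF, 150/50 allele 1 gave 2846, 2458 and 1998 CPM in Neuro-2a and 678, 1291 and 871 in SH-SY5Y, with no overlap. Near RCBTB1, 50/150 allele 2 gave 2583, 2164 and 1617 CPM against 1193, 720.2 and 889, also with no overlap. All 5 alleles at a SNP in VRK2, a protein kinase gene, were lower (-3.95 to -0.24), although 2 of them held a 0 in Neuro-2a. Of all 345 SNPs, with any number of alleles, 25 had at least 2 alleles that were higher without overlap and 10 had at least 2 that were lower, where 7.02% and 5.64% of all alleles were so. All alleles of a SNP share the bases around it, so they are not replicates of each other.

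The alleles of a fragment, which differ by 1 base, tended to differ between the lines in the same direction. Over the 522 fragments with both alleles, the fitted differences of allele 1 and allele 2 had r = 0.32, and 66.5% had the same sign. Both alleles were counted in the same libraries, so r was also taken between allele 1 in one replicate number and allele 2 in another, where no library is shared. With values at 0 left out, it was then 0.15 on average (0.09 to 0.20 over 6 pairings). Taken the same way within 1 replicate number, it was 0.23 on average (0.16 to 0.27 over 3 pairings). The r of 0.32 is of fitted differences with values at 0 kept, so it is not on the same footing. For the same allele, the difference in one replicate number against that in another had a mean r of 0.20 (0.16 to 0.24, 1244 to 1274 alleles with no 0 in the 4 libraries), and 57.9% to 62.3% of alleles had the same sign.

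No fragment had an allelic ratio that differed between the lines past the threshold. Of 522 fragments, 0 passed (0.00%, edgeR interaction of allele and line), 8 had an unadjusted p under 0.05 and the lowest adjusted p was 0.976, and limma on the ratios also called none, with 9 at an unadjusted p under 0.05. The 6 fragments with the smallest p all had an adjusted p of 0.976. One of them lies in RAB3IL1, a gene for an activator of Rab GTPases, where allele 2 over allele 1, as a log2 ratio, in the 50/150 placement was -2.13, -2.27 and -2.52 in Neuro-2a and -1.05, -1.19 and -1.12 in SH-SY5Y. These ratios are of RNA reads and are not divided by the input, so their sign does not say which allele was more active. The input is shared by both lines and cancels in the difference between them, which was -1.18 ± 0.29. In DRC3, a gene of the ciliary dynein regulatory complex, the 100/100 ratio was 3.26, 3.79 and 3.49 in Neuro-2a and 0.18, 2.00 and 1.84 in SH-SY5Y, a difference of 2.17 ± 0.65. In both fragments the ratios did not overlap between the lines. The fragments named here and in the next paragraph were picked by their p, which favours such separation. The share of all 522 fragments without overlap is not given here.

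Near CTSF, the cathepsin F gene, the 50/150 ratio was below 0 in every Neuro-2a library (-2.66, -1.13 and -0.65) and on both sides of 0 in SH-SY5Y (-0.37, 0.19 and 0.83), again without overlap. The 50/150 fragment in STOX1, a winged helix factor gene, differed by 0.97 ± 0.27 and that in CDH16, a cadherin gene, by 0.75 ± 0.23, and in each of these the ratios of the lines overlapped. At OSBPL10 and ZNF860 the 150/50 ratio differed by -3.82 ± 1.16 without overlap, and there allele 1 gave 3149, 44.9 and 179 CPM in replicates 1 to 3 of SH-SY5Y, so replicate 1 stood far from the others.

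No allele of the gene lists passed in the planned edgeR fit, and the counts below are of alleles at its unadjusted p under 0.05, which over all 1453 alleles held 60 higher (4.13%) and 55 lower (3.79%). limma-voom called 2 alleles of the transcription factor and chromatin list, 2 of the synaptic and adhesion list and 1 of the 10q24 list, all higher in Neuro-2a. Of these, the ZNF823 alleles also passed in edgeR over alleles with no 0, as given above. Of 34 alleles at 7 SNPs of transcription factor and chromatin genes, 5 were higher and 3 lower at that p, with a median of 0.14. Of these 5, 4 were ZNF823 alleles. The other belongs to TCF4, a basic helix-loop-helix factor, where 50/150 allele 1 gave 673, 298 and 467 CPM in Neuro-2a and 137, 75.5 and 41.0 in SH-SY5Y, a difference of 2.59 ± 0.58. In the same gene 150/50 allele 2 was lower, with a difference of -0.77 ± 0.16, and 100/100 allele 1 differed by 0.04 ± 0.47. The forkhead factor gene FOXP1 (150/50 allele 2, -1.51 ± 0.46) and the zinc finger gene ZNF536 (50/150 allele 2, -0.83 ± 0.28) gave the other lower alleles.

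Of 38 alleles of synaptic and adhesion genes, 2 were higher and 1 lower at that p (median -0.02), and of 27 of mitosis and RNA processing genes 1 was higher (median 0.07). That one lies in MAU2, a cohesin loader gene, where 150/50 allele 1 gave 555, 374 and 172 CPM against 76.3, 52.0 and 42.2, a difference of 2.58 ± 0.59. Of 21 alleles of genes in the 10q24 region, the 2 NT5C2 alleles were higher and the median was -0.41. None of the 17 alleles of glutamate receptor genes had such a p (median -0.04). Of 8 alleles of voltage-gated calcium channel genes, 6 were higher at any p, and the median was 0.42. The 1 allele with such a p lies in CACNA1C, the pore subunit of an L-type channel, and was lower. It gave 22.1, 163 and 427 CPM in Neuro-2a against 698, 774 and 1113 in SH-SY5Y, a difference of -2.79 ± 0.93. The 3 alleles of its SNP ran from -2.79 to 3.50, with 1 allele without overlap in each direction.

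The alleles with the most extreme activity in either line varied in how far the lines differed. In the protocadherin gamma cluster, which encodes neuronal adhesion proteins, 150/50 allele 1 had a log2 activity of 5.62 ± 0.80 in Neuro-2a and 5.65 ± 0.84 in SH-SY5Y and a difference of -0.01 ± 0.46. In MANBA, the beta-mannosidase gene, 100/100 allele 1 was among the lowest in both, at -5.04 ± 0.50 and -5.27 ± 0.17, a difference of 0.24 ± 1.13. Near ZSCAN2, 100/100 allele 2 was high in both (3.53 ± 2.46 and 3.85 ± 2.14), with replicate 1 at 79.4 and 129 CPM and the other libraries at 1379 to 2012. ANKRD63 50/150 allele 1 had the same form, at 51.7, 3752 and 3154 CPM in Neuro-2a and 193, 2604 and 3227 in SH-SY5Y. Low activity in both lines and a higher level in Neuro-2a were seen for 50/150 allele 1 in PLCL1, a phospholipase C-like gene (1.37 ± 0.80), and near PPARGC1A, a transcriptional coactivator gene (1.55 ± 0.79). Neither passed in the planned edgeR fit, while DESeq2 (adjusted p 0.0042 and 0.017) and edgeR with the input libraries in the fit (0.0197 and 0.0271) called both. That last fit takes part of its error from libraries of 1 plasmid pool, and the SE of the PLCL1 50/150 allele was 0.17 in it. PLCL1 100/100 allele 1 gave 70.9, 81.7 and 72.2 CPM in Neuro-2a and 12.6, 15.8 and 0 in SH-SY5Y, without overlap, and its difference was 3.95 ± 2.94. With 150/50, allele 1 differed by -0.20 ± 0.48 in PLCL1 and by -0.60 ± 0.49 near PPARGC1A. Of the alleles at these SNPs, 3 of 5 in PLCL1 and 1 of 4 near PPARGC1A were higher in Neuro-2a.

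For some of these reporters a lone 0 set the value. At OSBPL10 and ZNF860, 50/150 allele 1 had the highest activity of Neuro-2a among the alleles listed here, 6.45 ± 0.49, with 594, 1163 and 993 CPM. SH-SY5Y gave 0, 679 and 815, and the difference was 2.12 ± 2.90. In DPEP1, a dipeptidase gene, 100/100 allele 1 gave 222, 1899 and 1021 CPM in Neuro-2a and 148, 0 and 1128 in SH-SY5Y, while 150/50 allele 1 had no 0 and differed by -0.09 ± 0.13.

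Precision followed the amount of plasmid. In the lowest quartile of alleles by input reads the median SE of the difference was 1.07, and 8.77% of alleles had lines that did not overlap. In the highest quartile the SE was 0.26 and the share 19.6%. Values at 0 were also unevenly spread: 161 of 365 alleles in the lowest quartile held a 0, against 25 of 363 in the highest. The median SE was 3.06 for alleles with a 0 and 0.39 for those with none. Whether input or the values at 0 set the precision was not tested. Over all alleles the median difference was -0.12, and 43.4% were higher in Neuro-2a. The 1167 alleles with no 0 had a median of -0.06, and the 286 with a 0 had one of -1.10. The median difference by placement was -0.09, -0.17 and -0.07 for 50, 100 and 150 bases in front, and by allele -0.11 for allele 1 and -0.13 for allele 2.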

How the data were processed

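Per the file headers, the authors deposited 1 table for each line with raw read counts of every allele in the RNA and input libraries. The submitters' processing notes name limma 3.40.6. Aligner, counter and genome build: not given in the sources used here. An allele kept in a line's table has at most 1 input and 1 RNA library at 0.

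Counts were fitted in R 4.3.3 with edgeR 4.0.16 (TMM scaling, glmQLFit and glmQLFTest, two-sided, Benjamini-Hochberg over all alleles, adjusted p of 0.05, mean count of at least 10, replicate number as a block), beside DESeq2 1.42.0 and limma 3.58.1. The SE is the estimate over the root of F. CPM are TMM-scaled, and activity is log2 of CPM over input CPM with 0.5 added to RNA counts. In each Neuro-2a and SH-SY5Y library the median over alleles with no 0 was then subtracted. An activity of 0 is therefore the middle of the library and not equality with the input. The edgeR fits were also run on simulated counts. Those had the same relative spread for every allele, no lone values at 0 and no difference between replicate numbers. That run therefore does not show how the fits handle these features of the data. Deviations from the line mean of same-numbered libraries correlated at 0.61, 0.29 and 0.26, all over 0.1, so the numbers were taken as pairs from the data; replicates 2 and 3 were hardly distinct (0.23 and 0.25 when crossed). PCR reads are not molecules, so depth bounds counting error alone.

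The members, gene lists and tests were chosen with earlier results of these data known. Named alleles are the 6 per direction with the smallest p and 1 sign in all replicate numbers, the 6 fragments with the smallest p for allelic ratio, and the extreme alleles of either line; others were named after their values were seen.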

Additional observations from a re-analysis of the deposited data

Results flagged for a closer look

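Reads were also present for alleles that one table of the pair left out and that no comparison here uses. In SH-SY5Y alone, 109 alleles had a median RNA count of 453 and a median input count of 612. In Neuro-2a alone, 18 alleles had a median RNA count of 402.5 and a median input count of 2328. The members' median input count was 3845. No count of the other line was used for these alleles, so the medians do not say whether the lines differ.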

How the results depend on the processing

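The count of alleles that differ between the lines depended on the tool and on the values at 0. It was 0 with edgeR under the main scaling, DESeq2 size factors, library totals, every count minimum, every adjusted p and fold limit tried, with both alleles summed and without the replicate block, and with limma on log2(CPM + 1). It was 181 with DESeq2, 50 with limma-voom and 98 with the input libraries in the fit. The residual degrees of freedom that the input libraries add come from the spread among libraries of 1 plasmid pool, not among RNA libraries. Among alleles with no 0 the count was 2 with edgeR. In alternatives chosen after seeing the data, it was 2 with library totals, 2 with DESeq2 size factors and 0 with no replicate block. DESeq2 gave 81 and limma-voom 19 in such alleles, while summed alleles with no 0 gave 1. Over all fits that left out a replicate the count ran from 0 to 12 (5 without replicate 3 and with no 0). Calls for allelic ratio stayed at 0 under every alternative run, the fit without the replicate block included, and those for placement ratio ran from 0 to 7 without single replicates. The mean r of the line difference between replicate numbers was 0.20, and -0.0331 with values at 0 kept (rho 0.12 to 0.23). With replicates 2 and 3 of one line crossed it was 0.19. In the crossings that paired replicate 1 of a line with another number of the other line it was -0.024, -0.020, -0.016 and -0.0019. These means hold unlike values: in that order, r ran from -0.31 to 0.16, -0.33 to 0.18, -0.29 to 0.16 and -0.30 to 0.19. The median difference of all alleles was -0.12, and -0.01 without the replicate block; the cause of these moves was not tested.

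Among 32 named differences none reversed with other size factors or with the input in the fit. Without the replicate block, ANKRD63 100/100 allele 1 turned from -0.60 to 0.46, ANKRD63 50/150 allele 1 from -0.44 to 0.21, TCF4 100/100 allele 1 from 0.04 to -0.15 and PLCL1 150/50 allele 1 from -0.20 to 0.028. Leaving out single replicates, the same 4 ranged from -5.11 to 1.11, -1.0 to 0.25, -0.39 to 0.49 and -0.52 to 0.092, ZSCAN2 50/150 allele 2 from -0.49 to 0.17, DPEP1 50/150 allele 1 from -3.43 to 4.81 and the protocadherin allele from -0.30 to 0.37. None of these 7 passed the threshold in any fit listed. Alleles of low input had the largest SE and most often held a 0.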
